A study of Mus musculus with 42 samples.

Results

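Diet was compared in adipocyte-rich libraries of ZT 24, the only hour at which both diets had such libraries. Members were chosen by their measured Alb and Adipoq levels, as the libraries labelled ZT 24 with Alb under 100 CPM (a gene's counts scaled to a common library total) and Adipoq over 1000 CPM. They are 4 of the 42 libraries of the series: Y3_1 and Y7_2 on AIN93G, and Y28_3 and Y31_2 on the HFD. The libraries were made from female C57BL/6NHsd mice, 3 weeks old at the start, that were fed for 3 weeks either AIN93G, a standard diet with 16% of energy from fat, or the HFD, a modification of it with 45%, both with soybean oil as the fat. All were labelled liver, and no transgene, deletion or drug was part of the design. ZT (Zeitgeber time) counts hours from lights on, so ZT 24 closes the dark phase. At this hour 1 library of each diet was not adipocyte-rich, and 6 other adipocyte-rich libraries, all on AIN93G, were labelled ZT 16 and ZT 20.

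The values that chose the members are a description. Adipoq, the gene of the adipocyte hormone adiponectin, was at 1658 and 2529 CPM in the AIN93G libraries and at 2251 and 2296 CPM in the HFD libraries. Alb, which encodes the main protein secreted by hepatocytes, was at 81.0 and 28.2 CPM on AIN93G and at 19.7 and 53.0 CPM on the HFD. The lowest Alb outside the rule was 66434 CPM and the highest Adipoq outside it 5.01 CPM, far from the members, while Y3_1 was the member nearest to the Alb threshold. All 20 adipocyte markers, Lep, Scd1, Fasn and Plin1 among them, had counts in each of the 4 libraries. The liver label and the RNA therefore disagreed in these libraries, and the tissue is called adipocyte-rich here and by no depot name. Their diet and hour labels were kept as given and were not tested, and every comparison of the diets below rests on them.

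White adipocytes store energy as triglyceride. They make fatty acids from citrate through ATP citrate lyase, acetyl-CoA carboxylase and fatty acid synthase, elongate and desaturate the product, and draw the NADPH for it from the pentose phosphate pathway and malic enzyme. The transcription factor SREBP-1c (gene Srebf1) and the carbohydrate-responsive factor ChREBP (gene Mlxipl) drive these genes after a carbohydrate meal, and SREBP-2 (gene Srebf2) drives cholesterol synthesis when sterols are scarce.

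Depth was even, with 15687740 to 17601027 counts in the 4 libraries. The libraries of a diet differed far beyond counting noise, with a chi-square per degree of freedom of 104 for the AIN93G pair and 130 for the HFD pair, and were kept as separate samples. Their log2 levels correlated across genes at 0.920 within the AIN93G pair and 0.848 within the HFD pair. Between the diets the correlations were 0.850 to 0.971, so some libraries were more alike across diets than within 1. Skeletal muscle RNA separated each pair: the 14 muscle genes summed to 99.1 CPM in Y3_1 and 73.9 CPM in Y28_3, and to 18644 CPM in Y7_2 and 23308 CPM in Y31_2. Y28_3 also had the highest sums of lymphocyte markers, at 2322 CPM against 97.7 to 129 CPM in the other 3 libraries, of lymph node stroma markers, at 591 CPM against 15.9 to 33.3 CPM, and of fibroblast markers, at 10593 CPM against 4066 to 5009 CPM. The muscle-rich libraries were 1 of each diet, and the lymphocyte-rich library was on the HFD. Their part in the results below was not tested beyond fits that leave them out. Those fits keep only 1 library in at least 1 of the diets.

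**Figure D1:**
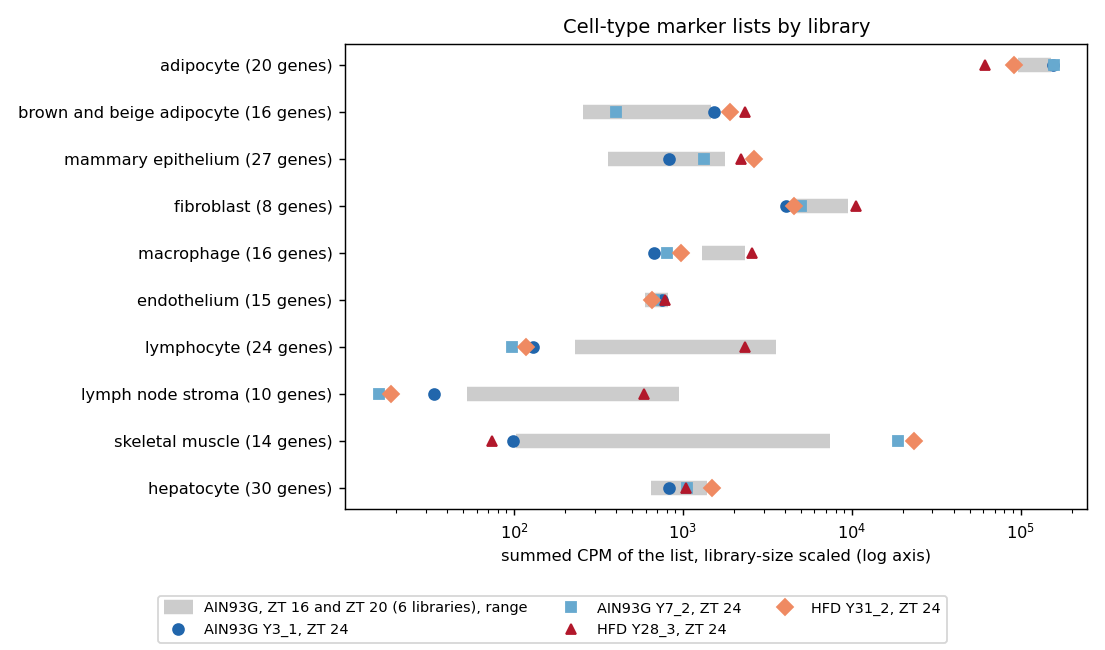
Summed CPM (library-size scaled, log axis) of 10 cell-type marker lists in the 4 libraries of ZT 24, with the range of the 6 adipocyte-rich AIN93G libraries of ZT 16 and ZT 20 as a grey bar. Muscle markers summed to 18644 CPM in Y7_2 and 23308 CPM in Y31_2, lymphocyte markers stood out in Y28_3, and the mammary epithelium sum was above both AIN93G libraries in both HFD libraries.

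No gene passed the test of diet. Among 14071 genes tested by edgeR's quasi-likelihood F-test with Benjamini-Hochberg adjustment, 0 had an adjusted p under 0.05, which is 0%, and the smallest adjusted p was 0.381. Without Y7_2 the count was 1. At an unadjusted p under 0.05, 934 genes (6.64%) were lower and 741 (5.27%) higher on the HFD. These counts depended on the scaling and the libraries, with 210 lower and 2462 higher by library size alone, 406 and 461 over the 4 libraries alone, 378 and 199 without Y3_1, 1369 and 1195 without Y7_2, and 547 and 261 without Y28_3. The same counts were 13 and 54 over all 6 libraries of ZT 24, which include 1 liver library per diet. They were 579 and 618 with the AIN93G libraries of all hours as 1 group, and 918 and 458 without Y11_3, an AIN93G library of ZT 16. DESeq2, which gave an adjusted p to 10461 genes, called 165 (1.58%) lower and 40 (0.382%) higher. The results are therefore given as levels in each library and as counts of genes whose diets did not overlap. Both HFD libraries were below both AIN93G libraries for 2755 genes (19.6%) and above both for 2986 (21.2%). The gap was at least 2-fold for 62 genes (0.441%) on the lower side and 75 (0.533%) on the higher side. With library size alone as the scaling, the split was 30 lower and 203 higher. A stricter reading set the HFD libraries against all 8 adipocyte-rich AIN93G libraries, and there 512 genes (3.64%) were below and 547 (3.89%) above.

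The genes of fatty acid synthesis were lower on the HFD as a group by level, though none passed edgeR's adjusted test. The fitted HFD level was below that of AIN93G for all 20 members tested, with a median log2 fold change of -1.50 beside 0.04 over all genes. Both HFD libraries were below both AIN93G libraries for 17 of the 20 members, beside 19.6% of all genes, and 8 of the 20 were apart by at least 2-fold, beside 0.441%. An unadjusted p under 0.05 with edgeR was found for 7 of the 20, beside 6.64%. Summed over the list, the share of all counts was 12.3% in Y3_1 and 12.7% in Y7_2, and 1.68% in Y28_3 and 5.06% in Y31_2. In bulk tissue, fewer cells of a type and less RNA of a gene per cell cannot be told apart.

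Scd1 encodes stearoyl-CoA desaturase, which turns saturated into monounsaturated fatty acids, and lies on chromosome 19 (mm10, 44394451 to 44407709, minus strand). Its scaled level, CPM after TMM scaling, was 90019 in Y3_1 and 75245 in Y7_2 on AIN93G, and 10100 in Y28_3 and 22740 in Y31_2 on the HFD. Both HFD libraries were below all 8 AIN93G libraries, whose lowest was 35282 at ZT 16. The log2 fold change was -2.33 (SE 0.53), a 5.03-fold lower fitted level, with an adjusted p of 0.381 by edgeR. Fasn, the fatty acid synthase gene on chromosome 11 (120805846 to 120824547, minus strand), was at 30152 and 31144 CPM on AIN93G and at 726 and 11222 CPM on the HFD. The HFD libraries differed from each other by 15.4-fold, more than the 2.69-fold gap between the diets, and the log2 fold change of -2.36 had an SE of 1.10. Scd1 was therefore apart between diets by more than its libraries differed within a diet, and Fasn was not.

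The other steps to palmitate and beyond were lower too. Acly, ATP citrate lyase, was at 3655 and 4600 CPM on AIN93G and at 152 and 1619 CPM on the HFD. Acaca, acetyl-CoA carboxylase 1, was at 4573 and 4327 CPM and at 199 and 1713 CPM. Elovl6, which elongates palmitate, was at 1232 and 1656 CPM and at 88.0 and 547 CPM. Neither diet overlapped the other in these genes, and the log2 fold changes were -2.22 (SE 1.09), -2.22 (SE 0.90) and -2.19 (SE 1.00). Scd2, another stearoyl-CoA desaturase, was at 1217 and 720 CPM on AIN93G and at 132 and 253 CPM on the HFD, below all 8 AIN93G libraries, with a log2 fold change of -2.33 (SE 0.63).

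Of the enzymes that supply NADPH, Pgd and G6pdx had less spread between libraries of a diet than Me1. Pgd, 6-phosphogluconate dehydrogenase, was at 669 and 736 CPM on AIN93G and at 167 and 333 CPM on the HFD, with a log2 fold change of -1.49 (SE 0.38). G6pdx, glucose-6-phosphate dehydrogenase, was at 328 and 368 CPM and at 133 and 152 CPM, with a log2 fold change of -1.29 (SE 0.37). Both genes were below all 8 AIN93G libraries. Me1, malic enzyme 1, was at 1560 and 4549 CPM on AIN93G and at 229 and 1421 CPM on the HFD, so Y31_2 was close to Y3_1. The regulators were less apart: Srebf1 was at 603 and 986 CPM and at 366 and 510 CPM, with a log2 fold change of -0.86 (SE 0.39). Mlxipl was at 244 and 235 CPM on AIN93G and at 104 and 192 CPM on the HFD. The 3 members whose diets overlapped were Thrsp, Slc25a1 and Mid1ip1.

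Y28_3 was below Y31_2 for all 20 members, and for 13 of the 17 members without overlap the HFD libraries differed from each other by a larger factor than the gap to AIN93G. Without Y31_2 the median log2 fold change of the list was -2.77, and without Y28_3 it was -1.13. Without both muscle-rich libraries, which leaves 1 library per diet, it was -2.41, and all 20 members were lower in the HFD library, beside 49.2% of all genes. With library size alone as the scaling, which moved the median of all genes to 0.36, the list median was -1.21 and 13 of 20 members were lower without overlap, beside 6.77% of all genes under that scaling. DESeq2 called 4 of the 20, Scd1, Scd2, Pgd and G6pdx, beside 1.58% of all genes.

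**Figure D2:**
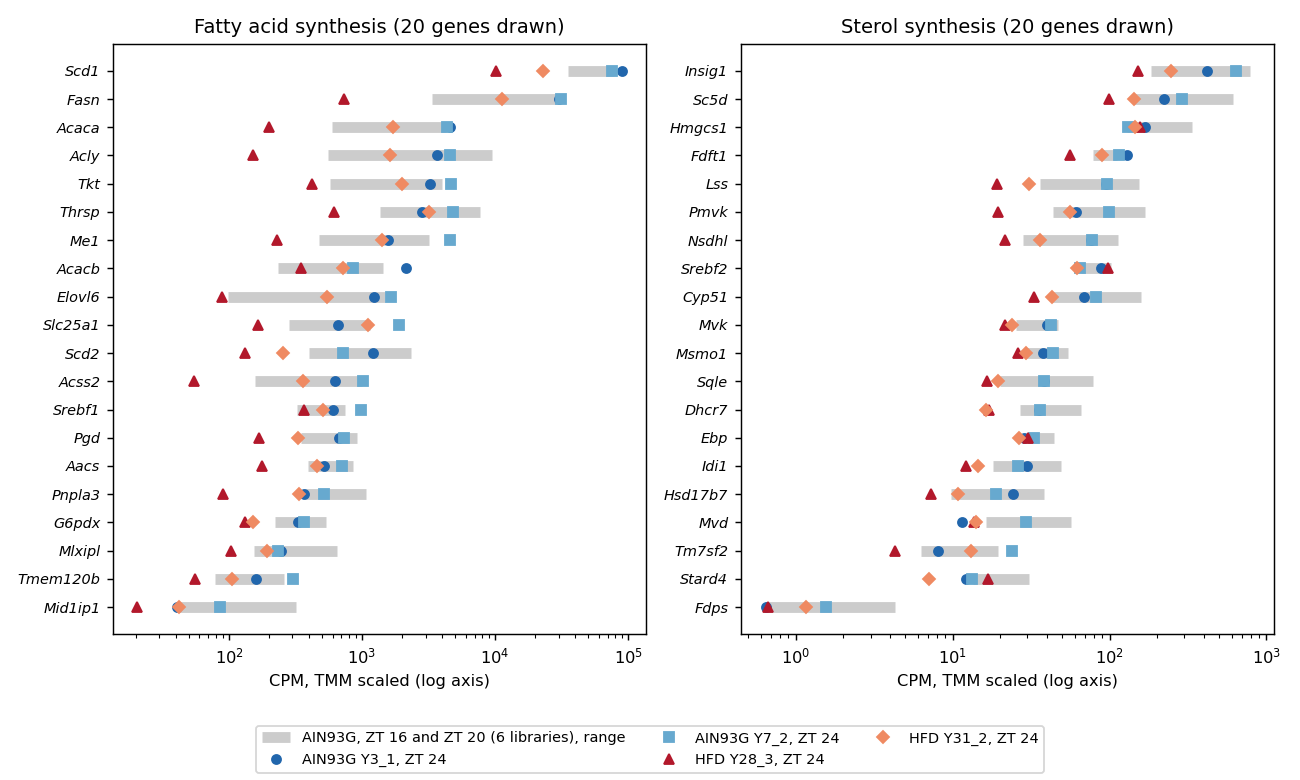
TMM-scaled CPM (log axis) of the 20 fatty acid synthesis genes and 20 of the 23 sterol synthesis genes in the 4 libraries of ZT 24, with the range of the 6 adipocyte-rich AIN93G libraries of ZT 16 and ZT 20 as a grey bar. Y28_3 (triangles) was below Y31_2 (diamonds) in all 20 fatty acid genes, and both lay below the AIN93G libraries of ZT 24 in 17 of them and in 13 of the sterol genes drawn.

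Sterol synthesis was lower too, by less and with closer HFD libraries. The median log2 fold change of the 23 members tested was -0.99, and 21 were negative. The median was -0.68 with library size alone, -0.82 without Y7_2, -0.85 without Y28_3 and -1.21 without Y31_2, and it was -0.04 over all 6 libraries of ZT 24, which include 1 liver library per diet. Both HFD libraries were below both AIN93G libraries for 15 members and above for 0, beside 19.6% and 21.2% of all genes, and 4 were lower by at least 2-fold, beside 0.441%. Below all 8 AIN93G libraries were 7 of the 23, beside 3.64% of all genes, and 12 had an unadjusted p under 0.05 by edgeR, beside 6.64%. The HFD libraries differed by more than the gap in only 2 of the 15 members. Fatty acid and sterol synthesis together held 12 of the 62 genes that were lower by at least 2-fold without overlap.

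Lss, lanosterol synthase, which makes lanosterol, the first sterol of the pathway, lies on chromosome 10 (mm10, 76531588 to 76557138, plus strand) and was at 95.3 and 96.4 CPM on AIN93G and at 19.1 and 30.5 CPM on the HFD. Its log2 fold change was -1.95 (SE 0.39), with an adjusted p of 0.381 by edgeR.

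Nsdhl, a sterol dehydrogenase, was at 76.6 and 77.8 CPM on AIN93G and at 21.6 and 36.1 CPM on the HFD. Dhcr7, which makes cholesterol from 7-dehydrocholesterol, was at 35.4 and 35.9 CPM and at 16.9 and 16.2 CPM. Both were apart by at least 2-fold, and their log2 fold changes were -1.42 (SE 0.39) and -1.11 (SE 0.29). Insig1, which holds SREBP in the endoplasmic reticulum, was at 417 and 644 CPM on AIN93G and at 151 and 245 CPM on the HFD (log2 difference -1.42, SE 0.48). Nsdhl, Dhcr7, Idi1 (below) and the fatty acid genes Elovl6, Scd2, Pgd, G6pdx, Me1, Mlxipl, Slc25a1, Mid1ip1 and Pnpla3 were named after their values were seen.

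The diets overlapped in all of the 23 members outside the 15 that were lower, Hmgcs1 and Srebf2 among them. Hmgcs1, HMG-CoA synthase, was at 167 and 131 CPM on AIN93G and at 155 and 145 CPM on the HFD. Srebf2 was at 88.0 and 64.7 CPM and at 98.1 and 62.0 CPM. With library size alone 14 of 23 members were lower without overlap, beside 6.77% of all genes under that scaling. DESeq2 called 6 of the 23 lower, Dhcr7, Idi1, Lss and Nsdhl among them, beside 1.58% of all genes.

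Promoter sequence was compared because the sterol genes were lower as a group. RefSeq windows (GRCm38.p6) were at hand for 16 of the 23 sterol genes, 18 of the 20 fatty acid genes and 10633 of the genes tested, and the 250 bases before each start were searched on both strands for 3 motifs. CCAAT, the box bound by NF-Y, was in 16 of 16 sterol windows (100%), 10 of 18 fatty acid windows (55.6%) and 40.3% of all windows of tested genes. A sterol regulatory element written TCACNCCAC was in 1 of 16, 1 of 18 and 1.21%. The E-box CACGTG was in 4 of 16 (25%), 2 of 18 (11.1%) and 9.67%. Matches may share bases, as CCAAT and ATTGG do in the Fasn window. Genes with several starts counted if any window held the motif, and no conclusion about a factor is drawn from a match or its absence. The windows below, each 100 bases on the gene's strand, show the box in 3 sterol genes that were lower, in Hmgcs1, which was not, and in Fasn. Capitals mark CCAAT or its complement ATTGG and, in Hmgcs1, the sterol element as well.

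Lss: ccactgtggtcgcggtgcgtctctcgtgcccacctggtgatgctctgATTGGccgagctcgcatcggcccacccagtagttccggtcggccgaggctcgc
Nsdhl: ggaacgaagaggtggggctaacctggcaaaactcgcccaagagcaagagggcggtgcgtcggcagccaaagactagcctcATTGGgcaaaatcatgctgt
Idi1: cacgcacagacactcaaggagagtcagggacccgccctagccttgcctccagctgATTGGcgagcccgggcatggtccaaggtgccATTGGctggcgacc
Hmgcs1: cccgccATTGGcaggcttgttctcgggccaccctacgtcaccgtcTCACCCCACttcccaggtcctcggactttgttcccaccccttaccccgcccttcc
Fasn: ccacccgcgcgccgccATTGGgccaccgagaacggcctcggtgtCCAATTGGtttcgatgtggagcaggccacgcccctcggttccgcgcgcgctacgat

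The windows are chr10:76531496-76531595 (plus), chrX:72918421-72918520 (plus), chr13:8885506-8885605 (plus), chr13:119690169-119690268 (plus) and chr11:120824554-120824653 (minus). Idi1, isopentenyl-diphosphate isomerase, was at 29.8 and 26.2 CPM on AIN93G and at 12.1 and 14.6 CPM on the HFD. The box was thus in the promoter of genes that were apart between diets and of Hmgcs1, which was level.

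Of the 20 adipocyte markers none passed edgeR's adjusted test and 6 overlapped between diets, Adipoq and Cfd among them. The other 14, which include Scd1 and Fasn of the fatty acid list, were lower without overlap, and 0 were higher, beside 19.6% and 21.2% of all genes. Set against all 8 AIN93G libraries, 1 of the 20, Scd1, was below and 0 were above, beside 3.64% and 3.89% of all genes. The list median was -0.64 on the log2 scale, or -0.31 with library size alone or with the AIN93G libraries of all hours as 1 group. Adipoq was used to choose the libraries, and its scaled level of 1948 and 2767 CPM on AIN93G and 1926 and 2221 CPM on the HFD overlapped. Lpl, lipoprotein lipase, was at 16743 and 12849 CPM and at 8497 and 8245 CPM. Dgat2, which adds the last fatty acid to triglyceride, was at 3043 and 3168 CPM and at 1222 and 1567 CPM, with a log2 fold change of -1.16 (SE 0.30). Pparg, the master regulator of adipocyte differentiation, was at 268 and 258 CPM and at 173 and 158 CPM, with a log2 fold change of -0.67 (SE 0.18). DESeq2 called Dgat2, Pparg and Scd1 lower.

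In the lipid droplet and lipolysis list 11 of 21 members were lower without overlap and 1 higher, beside 19.6% and 21.2% of all genes. The list median was -0.40 on the log2 scale, and -0.58 to -0.09 over the alternatives. Against all 8 AIN93G libraries 0 of the 21 were below and 0 above, beside 3.64% and 3.89% of all genes. Plin1, the coat protein of the droplet, was at 2226 and 1999 CPM on AIN93G and at 1357 and 1290 CPM on the HFD (log2 difference -0.67, SE 0.28). Lipe, hormone-sensitive lipase, was at 2100 and 1655 CPM and at 1148 and 1111 CPM (log2 difference -0.73, SE 0.30). Mgll, monoglyceride lipase, was at 1949 and 1242 CPM and at 791 and 777 CPM (log2 difference -1.03, SE 0.30). Beside 19.6% and 21.2%, 5 of the 16 triglyceride synthesis genes were lower and 1 higher, and of the 21 fatty acid uptake genes 11 and 3. Their medians were -0.69 (-0.98 to -0.37 over the alternatives) and -0.56 (-0.67 to -0.11). Below all 8 AIN93G libraries were 0 triglyceride synthesis genes and 1 uptake gene, and above them 0 and 2. Fatty acid oxidation had 1 of 28 lower and 3 higher with a median of 0.06. The 43 nuclear genes of the respiratory chain had 0 in either direction with a median of 0.06. In these 2 lists Y28_3 was below the muscle-rich Y31_2 for 24 of 28 and 43 of 43 members, beside 7504 of all 14071 genes. Such a spread within a diet makes overlap more likely, so these counts do not show that diet left the genes unchanged. The part of muscle RNA in this was not tested.

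In the list of insulin signalling and glucose handling, 13 of 26 members were lower and 2 higher, beside 19.6% and 21.2% of all genes, with a list median of -0.66 on the log2 scale. In 11 of the 13 the HFD libraries differed from each other by more than the gap between diets. None of the 26 was below all 8 AIN93G libraries and 2 were above them, beside 3.64% and 3.89% of all genes. Slc2a4, the insulin-responsive glucose transporter GLUT4, was at 459 and 400 CPM on AIN93G and at 153 and 268 CPM on the HFD, with a log2 fold change of -1.03 (SE 0.39). Gys1, glycogen synthase, was at 271 and 230 CPM and at 104 and 164 CPM. The 2 higher members were Akt1, at 105 and 118 CPM and at 152 and 139 CPM, and Slc2a1, the basal transporter GLUT1, at 14.4 and 11.2 CPM and at 21.1 and 22.9 CPM. Slc2a4, Gys1, Akt1 and Slc2a1 were named after their values were seen. Gys1 was the 1 member that DESeq2 called.

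**Figure D3:**
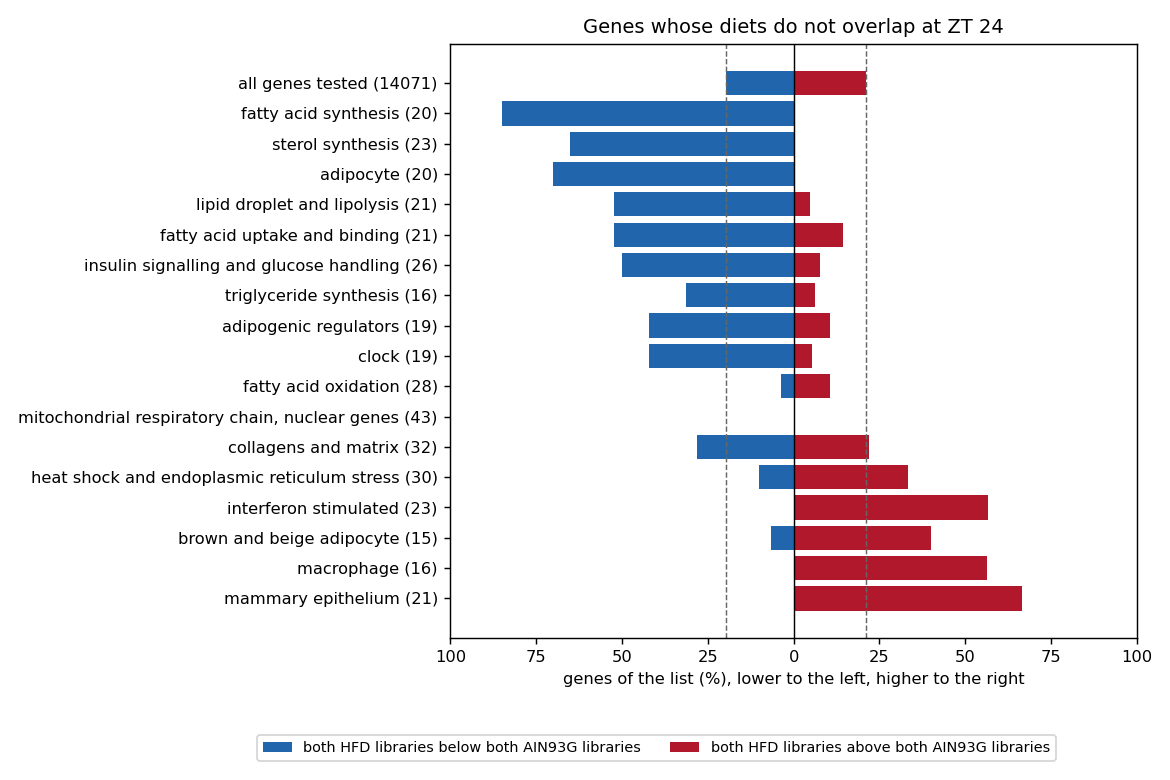
Share of each gene list (%, number of genes tested in parentheses) with both HFD libraries below (left) or above (right) both AIN93G libraries of ZT 24, with dashed lines at the shares over all 14071 genes, 19.6% and 21.2%. Fatty acid synthesis, adipocyte and sterol synthesis genes lay farthest to the left, and mammary epithelium farthest to the right.

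Of 22 secreted adipocyte proteins 2 were lower without overlap and 1 higher, beside 19.6% and 21.2% of all genes. Lep, the satiety hormone leptin (chromosome 6, 29060220 to 29073877, plus strand), was at 1522 and 619 CPM on AIN93G and at 545 and 274 CPM on the HFD (log2 difference -1.39, SE 0.74, 95% interval -3.07 to 0.30). The gap between diets was 1.13-fold and the AIN93G libraries differed by 2.46-fold, so the difference was within the spread. Cfd, adipsin, was at 1847 and 4776 CPM on AIN93G and at 3919 and 9458 CPM on the HFD (log2 difference 1.01, SE 0.58), and was the higher of each pair in a muscle-rich library. Retn, resistin, was at 502 and 1369 CPM and at 314 and 1155 CPM, and overlapped.

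The genes the study measured by PCR in liver include lipid and clock genes. Of the polyunsaturated fatty acid desaturases, Fads1 was at 155 and 121 CPM on AIN93G and at 67.2 and 119 CPM on the HFD, and Fads2 at 19.4 and 21.3 CPM and at 12.3 and 17.2 CPM. Neither overlapped, and each gap was small beside the spread of the HFD pair. Fads3 was at 531 and 651 CPM and at 232 and 285 CPM (log2 difference -1.19, SE 0.35), and DESeq2 called it lower. Clock was at 69.8 and 42.2 CPM and at 46.8 and 56.0 CPM. Per1 was at 189 and 99.6 CPM and at 114 and 115 CPM, Per2 at 117 and 84.2 CPM and at 61.5 and 84.6 CPM, and Cry1 at 13.9 and 16.0 CPM and at 14.6 and 18.1 CPM. Arntl (Bmal1), the partner of Clock, was below its range of 5.23 to 46.4 CPM in the AIN93G libraries of the other hours in all 4, at 0.722 and 2.73 CPM on AIN93G and 3.82 and 4.44 CPM on the HFD. Nr1d1 (Rev-erb alpha), which represses Arntl, was at 117 and 61.3 CPM and at 55.4 and 40.0 CPM. All 4 were above its range of 5.63 to 19.6 CPM in the AIN93G libraries of the other hours. Whether the hour labels hold was not tested. Of the 19 clock genes 8 were lower without overlap and 1 higher, beside 19.6% and 21.2% of all genes, and the list median was -0.39 on the log2 scale, or 0.13 with the AIN93G libraries of all hours as 1 group and -0.08 with library size alone. In all 8 the HFD libraries differed by more than the gap between diets.

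**Figure D4:**
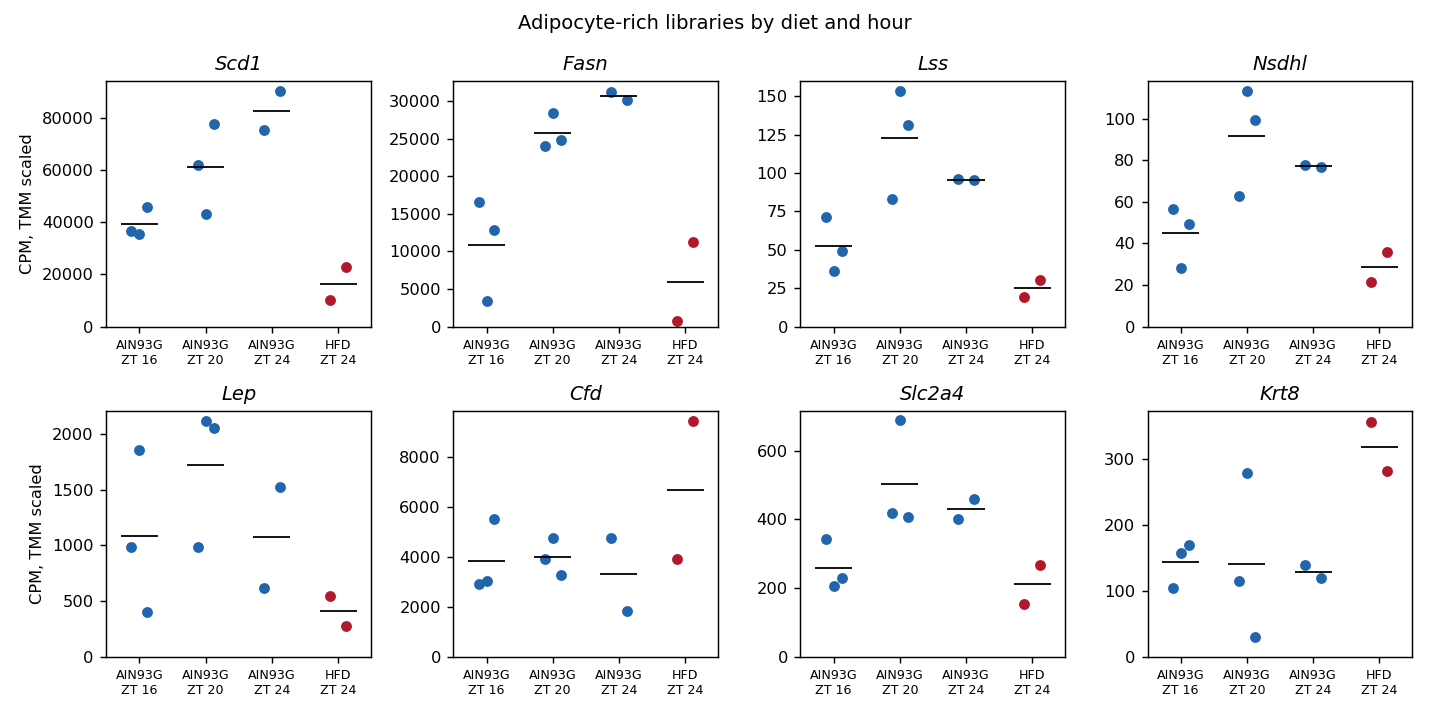
TMM-scaled CPM of 8 genes in the 10 adipocyte-rich libraries by diet and hour, with points for libraries and a line at the mean of each group (3 libraries at ZT 16 and ZT 20, 2 per diet at ZT 24). Scd1 and Lss in the HFD libraries lay below every AIN93G library, while Fasn in Y31_2 and Lep in Y28_3 lay within the AIN93G range.

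The AIN93G libraries of the other hours give a wider range. Scd1 was at 35282 to 45755 CPM at ZT 16 and at 43162 to 77558 CPM at ZT 20, and Fasn at 3358 to 16566 CPM and at 24048 to 28470 CPM. The Fasn level of 11222 CPM in Y31_2 was within the AIN93G range of ZT 16, and of the 20 fatty acid genes 5 were below all 8 AIN93G libraries: Scd1, Scd2, Pgd, G6pdx and Pnpla3.

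Epithelial genes were among those higher without overlap, and none passed the test of edgeR or DESeq2. Of the 21 mammary epithelium markers tested, 14 were higher in both HFD libraries and 0 lower, beside 21.2% of all genes, and 10 were above all 8 AIN93G libraries, beside 3.89%. Of the 21, 1 was apart by at least 2-fold, 0 had an unadjusted p under 0.05 with edgeR, beside 5.27% of all genes, and DESeq2 called 0. The summed level of the 27 markers was 823 and 1328 CPM on AIN93G and 2203 and 2646 CPM on the HFD, and 361 to 1776 CPM in the AIN93G libraries of the other hours. Krt8, a keratin of simple epithelia, was at 119 and 140 CPM and at 356 and 281 CPM, with a log2 fold change of 1.30 (SE 0.77). Epcam, an epithelial adhesion protein, was at 44.02 and 97.0 CPM and at 113 and 214 CPM, with a log2 fold change of 1.21 (SE 0.86). Krt14, a basal keratin, was at 15.8 and 15.1 CPM and at 31.7 and 61.3 CPM. The milk protein gene Wap had no counts in any of the 4 libraries. Krt14 and Wap were named after their values were seen, as were Cd24a and Tmprss2, also epithelial genes, which were at 47.1 and 62.3 CPM against 136 and 171 CPM, and at 46.3 and 42.0 CPM against 116 and 163 CPM. The adipocyte marker sum, with Scd1 and Fasn in it, was 156126 and 156620 CPM on AIN93G and 61457 and 91400 CPM on the HFD. Scd1 and Fasn were its 2 largest members, at a mean scaled level of 49526 and 18311 CPM over the 4 libraries. The lower sum on the HFD is therefore weighted to these 2 fatty acid genes and is no measure of the share of adipocytes. The part of the epithelial RNA in the lower adipocyte values was not tested.

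Interferon-stimulated genes were on the higher side by small steps, with 13 of 23 higher without overlap and 0 lower, beside 21.2% and 19.6% of all genes, and a median log2 fold change of 0.49. Irf7, the transcription factor that amplifies the interferon response, was at 37.2 and 44.1 CPM on AIN93G and at 123 and 76.1 CPM on the HFD (log2 difference 1.29, SE 0.51). Ifi27l2a was at 300.0 and 508 CPM and at 601 and 801 CPM. Above all 8 AIN93G libraries was 1 of the 23, near the 3.89% of all genes, and Irf7 reached 111 CPM at the other hours. Macrophage markers were higher without overlap in 9 of 16 members, beside 21.2% of all genes, but their sum was 2553 CPM in Y28_3 and 971 CPM in Y31_2 against 676 and 799 CPM on AIN93G. Lymphocyte, lymph node stroma and cell cycle genes were highest in Y28_3 among the 4 libraries. In the AIN93G libraries of the other hours the lymphocyte sum reached 3573 CPM and that of lymph node stroma 949 CPM. Mki67, a proliferation marker, was at 68.1 CPM in Y28_3 and at 4.98 to 13.1 CPM in the other 3 libraries of ZT 24.

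Of the 15 brown and beige adipocyte genes tested, 6 were higher without overlap and 1 lower, beside 21.2% and 19.6% of all genes, and 0 had an unadjusted p under 0.05 with edgeR. Ucp1, the uncoupling protein of brown fat, was at 721 CPM in Y3_1, 844 CPM in Y28_3 and 603 CPM in Y31_2, and at 45.2 CPM in Y7_2, so the diets overlapped. Of 32 collagen and matrix genes 9 were lower and 7 higher, beside 19.6% and 21.2% of all genes, and 5 and 3 had an unadjusted p under 0.05 with edgeR, beside 6.64% and 5.27%. Col4a1, of the basement membrane, was at 1781 and 1004 CPM on AIN93G and at 818 and 531 CPM on the HFD (log2 difference -1.04, SE 0.42), and Postn, periostin, at 349 and 542 CPM and at 1225 and 602 CPM.

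The 5 genes per direction of lowest unadjusted p, among those with at least 5 CPM and no overlap, were in neither synthesis list. Lower were Fry, Atrn, Hipk2, Gnptab and Prkce, and higher H2-T23, Sat1, Gstt3, Capg and Clk1, each with an adjusted p of 0.381 by edgeR. Hipk2, a nuclear protein kinase, was at 396 and 185 CPM on AIN93G and at 50.1 and 75.6 CPM on the HFD (log2 difference -2.21, SE 0.37). Fry was at 511 and 285 CPM and at 96.5 and 119 CPM (log2 difference -1.89, SE 0.31). Prkce, protein kinase C epsilon, was at 187 and 158 CPM and at 62.9 and 76.9 CPM. H2-T23, a nonclassical MHC class I gene, was at 70.2 and 95.4 CPM and at 224 and 176 CPM (log2 difference 1.27, SE 0.23). Sat1, which acetylates polyamines, was at 45.8 and 62.5 CPM and at 129 and 91.9 CPM. DESeq2 called all 10, but they were picked by p and no overlap in the same counts, so these calls are no independent support.

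Some genes apart by at least 2-fold were named after their values were seen. Aoc3, an amine oxidase of the adipocyte surface, was at 1843 and 1288 CPM on AIN93G and at 597 and 608 CPM on the HFD. Slc2a5, the fructose transporter GLUT5, was at 69.3 and 43.7 CPM and at 0.356 and 16.5 CPM. Ido1, which degrades tryptophan, was at 7.79 and 4.10 CPM and at 52.1 and 52.8 CPM, above the 25.1 CPM that was the highest of the other AIN93G libraries.

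The diet difference was also set against that in liver, with the 3 libraries per diet of ZT 0, the same hour of the light cycle, which had liver levels of Alb and shared no library with the comparison above. The test of the difference between the 2 tissues passed for 0 of 14186 genes with edgeR (0%), with 1678 at an unadjusted p under 0.05. It passed for 359 of 14155 (2.54%) without Y7_2, and with DESeq2 for 223 of the 6183 genes given an adjusted p (3.61%). Fatty acid synthesis was lower on the HFD in both: the median log2 fold change of the 20 genes was -1.50 in adipocyte-rich libraries and -1.48 in liver. For Scd1 the values were -2.33 (SE 0.53) and -3.12 (SE 0.49), a difference of 0.78 (SE 0.72). Scd2 was at -2.33 (SE 0.63) and -0.21 (SE 0.50), a difference of -2.13 (SE 0.78), and Pnpla3, a lipid droplet protein, differed the other way by 2.52 (SE 1.09).

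For sterol synthesis the medians were -0.99 in adipocyte-rich libraries and -0.10 in liver, over 23 and 24 members tested. Lss was at -1.95 (SE 0.39) and -0.49 (SE 0.35), a difference of -1.46 (SE 0.56) with an adjusted p of 0.367 by edgeR. Of the 24 members 6 had an unadjusted p under 0.05 for the difference, beside 11.8% of all genes. No sterol gene named here passed that test with edgeR.

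**Figure D5:**
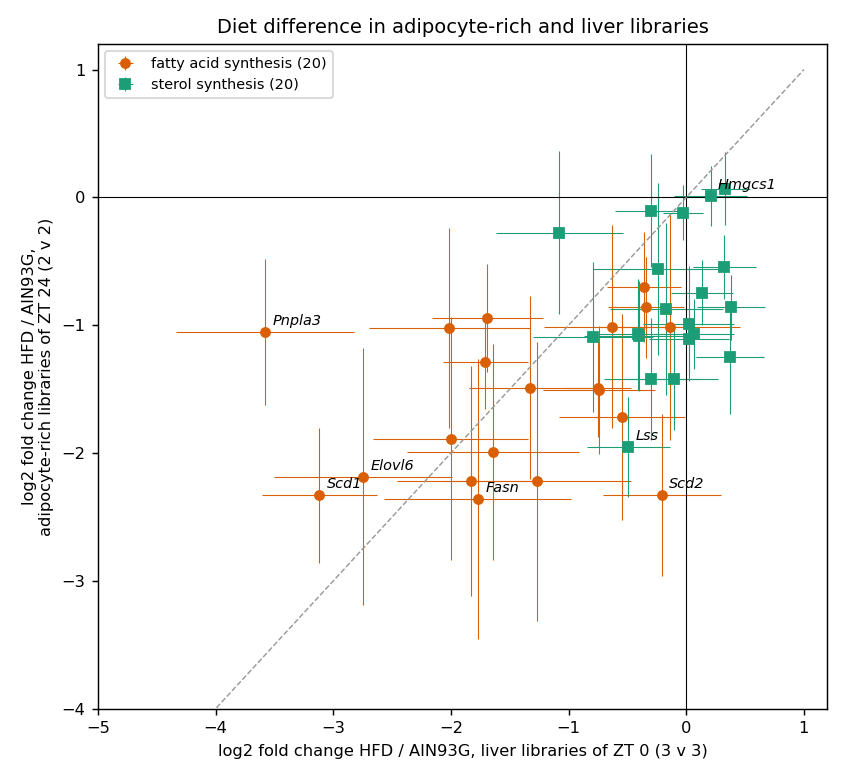
Log2 fold change HFD over AIN93G of 20 fatty acid synthesis genes and 20 of the 23 sterol synthesis genes in adipocyte-rich libraries of ZT 24 (2 against 2, vertical) and in liver libraries of ZT 0 (3 against 3, horizontal), with SE bars and a dashed line of equality. All 20 fatty acid genes were negative on both axes, and the median of the whole sterol list was -0.10 in liver and -0.99 in adipocyte-rich libraries.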

How the data were processed

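RNA from 42 mouse samples labelled liver was sequenced, and the authors deposited 1 table of raw counts per gene for 54532 genes (mm10). The submitters' processing notes name fastp, STAR, HTSeq 0.6.1 and DESeq without their settings. Groups were taken from the sample labels. Adipocyte-rich libraries were found by library-size CPM of Alb and Adipoq. The 10 libraries with Alb under 100 CPM were fitted together in groups of diet and hour with edgeR 4.0.16 in R 4.3.3 (TMM factors, quasi-likelihood F-test, Benjamini-Hochberg), keeping genes that averaged 25 counts or more. The 6 AIN93G libraries of ZT 16 and ZT 20 only added to the estimate of the spread, and the common biological coefficient of variation was 0.400. The contrast was HFD minus AIN93G at ZT 24. The interaction fit added the 6 libraries of ZT 0. DESeq2 1.42.0 was an alternative. Libraries were called apart when the lowest CPM plus 0.5 of 1 diet exceeded the highest of the other. The fits were tested on simulated data. Differences are on the log2 scale. With 2 libraries per diet no exact permutation test could pass, since its smallest two-sided p is 1 in 3. Whether the libraries of a group came from separate mice is not stated in the labels, and cages are not given in the sources used here, so the tests measure the spread between these libraries.

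The members and gene lists were chosen with earlier results of these data known. Named genes were the marker genes Adipoq, Alb, Lep, Scd1 and Fasn, the 5 genes per direction of lowest unadjusted p with at least 5 CPM and no overlap, the list members of highest CPM, and the genes the study measured by PCR. Others are marked in the text. Strand handling of the counting is not given in the sources used here, so overlapping genes are uncertain, and so are close paralogs. Some list members are not reported here by name or drawn, and the list counts include them.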

Additional observations from a re-analysis of the deposited data

How the results depend on the processing

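The edgeR count of 0 genes for diet stayed at 0 under every planned change of samples, scaling and filter except the libraries left out in turn, where it ran from 0 to 1 (1 without Y7_2), and DESeq2 gave 205. The test against liver gave 223 with DESeq2 and 0 to 359 with each library left out, the highest without Y7_2. For both counts the cause was not tested. The 62 genes lower by at least 2-fold became 30 with library size alone, 257 at 1.5-fold, 2 at 4-fold, 2755 with any gap, 1 against all 8 AIN93G libraries, 20 scaled to Adipoq, Plin1, Fabp4 and Cidec, and 128 to 452 with 1 library of ZT 24 left out (161 without Y3_1, 452 without Y7_2, 128 without Y28_3 and 409 without Y31_2). The 75 higher genes became 203, 400, 3, 2986, 3 and 261 in that order, 41 with at least 25 counts in each of the 4 libraries, and 195, 780, 355 and 1115 with the same libraries left out. Fewer libraries or a lower fold admit more genes by construction. Against all 8 AIN93G libraries, 5 fatty acid and 7 sterol genes were lower, in place of 17 and 15. The log2 fold change turned in sign for Idi1 (0.66), Fads1 (0.068) and Gstt3 (-0.80) over all 6 libraries of ZT 24, where 1 library per diet was liver, and for Nr1d1 (0.65) with AIN93G of all hours as 1 group. Among the list medians given, those of the clock (-0.83 to 0.13), fatty acid oxidation (-0.30 to 0.47) and the nuclear respiratory chain (-0.45 to 0.38) changed sign. The scaling to adipocyte genes supports nothing here, since Adipoq chose the libraries and Plin1 was itself lower on the HFD. The scaling to these genes and the fit without both muscle-rich libraries were chosen after seeing the data. No paired analysis was possible because the replicate numbers were given in accession order and tie no library of 1 diet to a library of the other. With 15687740 to 17601027 counts per library, depth limits statements only on genes near 1 CPM, such as Arntl.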
